A study of Mus musculus with 18 samples.

Results

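Adipose tissue and skeletal muscle of the same 3 wild-type mice were compared across 20358 genes on 6 of the 18 microarrays of the series. Mice 1, 2 and 3 (wild type, WT) each gave 1 adipose array and 1 muscle array, and every comparison was made within the mouse, as adipose minus muscle. All 3 were male FVB/N mice aged 10 weeks with free access to a rodent diet, and their tissues were frozen after death by CO2. The sources used here name neither the fat depot nor the muscle. The other 12 arrays held the livers of the same mice and 3 tissues of MKR mice, which carry a mutated IGF1 receptor in skeletal muscle. They were used here only where stated. A level is the log2 intensity of a gene on 1 array, averaged over its probe sets, which are short stretches of a transcript that the array measures separately. A difference of 1 between 2 levels is a 2-fold difference in intensity. Levels were compared between tissues and not between genes, because probe sets of different genes bind with different strength.

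An adipocyte keeps triglyceride in a single large droplet, makes and breaks it down under the control of insulin, catecholamines and other hormones, and secretes adipokines such as adiponectin and leptin into the blood. A skeletal muscle fibre is filled with sarcomeres, in which myosin thick filaments pull on actin thin filaments when calcium leaves the sarcoplasmic reticulum, and it holds glycogen, phosphocreatine and mitochondria to pay for contraction. For many enzymes and structural proteins the genome holds a separate gene for the form used in muscle. Both tissues also contain blood vessels, nerves, connective tissue and immune cells. In whole tissue, fewer cells of a type and less RNA in each of those cells cannot be told apart.

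The labels were checked with defining markers. All 10 adipocyte markers (Adipoq, Lep, Retn, Cfd, Plin1, Cidec, Fabp4, Pparg, Lipe and Slc7a10) passed the test as higher in adipose tissue, by 2.56 to 5.56, and all 10 muscle markers (Ckm, Acta1, Mylpf, Tnnt3, Tnni2, Tnnc2, Atp2a1, Mb, Myh4 and Actn3) passed as higher in muscle, with differences of -7.97 to -3.76. The 10 muscle markers lay between 4.62 and 6.04 on the adipose arrays, against 8.51 to 12.76 on the muscle arrays, and at 4.61 to 6.08 in liver. The adipocyte markers lay between 8.3 and 12.52 on the adipose arrays and between 4.77 and 9.95 on the muscle arrays, with mean levels of 6.08, 6.21 and 6.34 on muscle arrays 1, 2 and 3 and 5.52 to 5.72 in liver. The values of up to 9.95 in muscle were those of Fabp4, the fatty acid binding protein of adipocytes, macrophages and capillary walls.

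Some arrays stood apart from the others of their tissue. On adipose array 3, 213 genes were over 1 lower than on both other adipose arrays, where the other 5 arrays had between 1 and 24 genes that were lower in this way. Of these 213 genes, 107 were among the 1344 (6.6% of all genes) called higher in adipose tissue by over 1, which leaves 1237 without them. They included Dcdc2a, Cuzd1, Lcn2, Slc27a2 and the motile cilium genes Dnah12 and Rsph4a, whose calls as higher in adipose tissue were all lost without mouse 1 and also without mouse 2. Without mouse 3 the differences were 5.02 in place of 3.30 for Dcdc2a, 4.12 in place of 2.64 for Cuzd1, 4.24 in place of 2.87 for Lcn2, 3.51 in place of 2.45 for Rsph4a and 3.36 in place of 2.18 for Dnah12. Lcn2, which encodes lipocalin 2, had levels of 9.84, 10.07 and 5.48 on adipose arrays 1, 2 and 3 and of 4.76, 6.66 and 5.34 on muscle arrays 1, 2 and 3. Most of these genes (72.3%, against 4.1% of all genes) were also over 1 higher on 1 MKR adipose array, that of replicate 1, than on the other 2. On that MKR array a list of 19 epididymis markers averaged 10.38, while on WT adipose arrays 1, 2 and 3 they averaged 4.85, 4.91 and 5.08, against 4.78 to 4.94 on the muscle arrays. Some genes of epithelia, chosen after their values were seen, were higher on WT adipose arrays 1 and 2 than on array 3. Epcam had 6.99, 6.85 and 4.94 on WT adipose arrays 1, 2 and 3, Pax8 6.39, 6.76 and 5.13, and Srd5a2 8.32, 8.14 and 4.97. On MKR adipose array 1 these 3 genes had 8.6, 8.24 and 10.1. The cilium gene Foxj1 had 4.51, 4.7 and 4.63 on WT adipose arrays 1, 2 and 3. On muscle array 1, 38 genes were over 1 higher than on both other muscle arrays, among them 7 of 12 slow fibre genes and 6 of 16 liver markers. Albumin (Alb) had levels of 5.32, 5.12 and 5.03 on adipose arrays 1, 2 and 3, against 9.89, 7.73 and 5.46 on muscle arrays 1, 2 and 3. Its difference of -2.54 was -1.52 without mouse 1 and did not pass without mouse 2. The library-wide correlation stayed between 0.974 and 0.991 among adipose arrays and between 0.983 and 0.989 among muscle arrays, and was 0.826 to 0.832 across the tissues. The part of other cells or tissues in them was not tested.

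**Figure D1:**
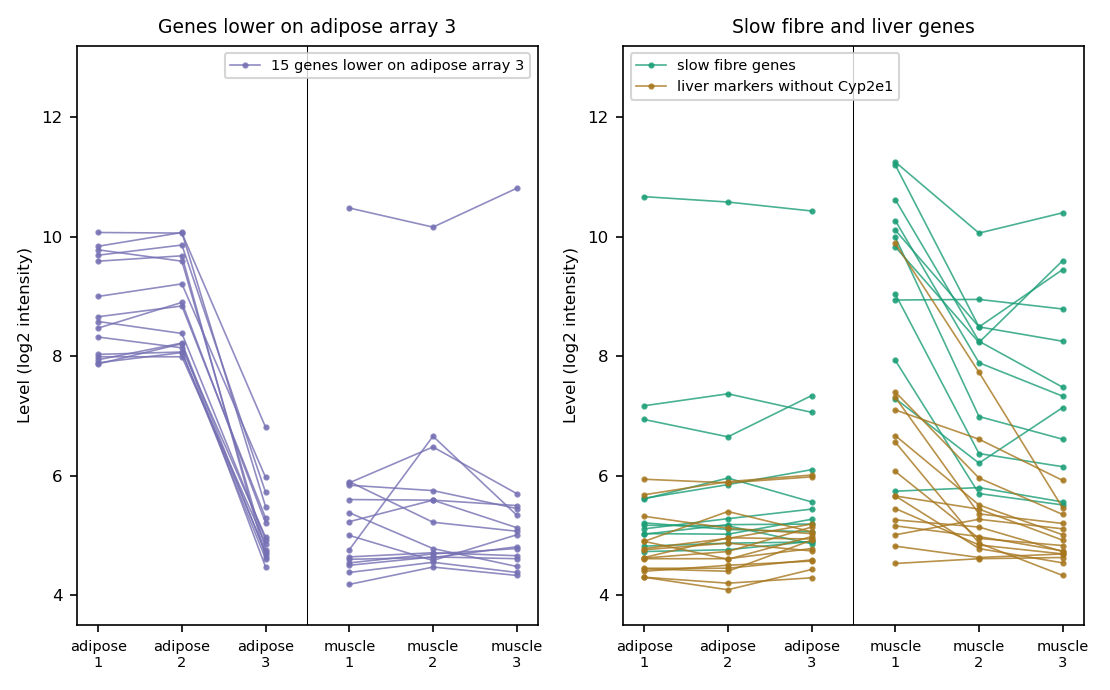
Level (log2 intensity, vertical axis) of single genes on the 3 adipose and the 3 muscle arrays, with a line joining the values of 1 gene within a tissue. The 15 genes with the largest gap (left) are low on adipose array 3 and high on arrays 1 and 2, and the 12 slow fibre genes and the liver markers without Cyp2e1 (right) are mostly higher on muscle array 1 than on muscle arrays 2 and 3.

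Of the 20358 genes, 4399 (21.6%) were higher in adipose tissue and 3851 (18.9%) were higher in muscle at an adjusted p under 0.05 in the paired limma fit. These shares are the background for the count of every list below. Without mouse 2 the adipose count was 2863 and without mouse 3 it was 4763. The adipose side held 53.3% of these calls, 68.7% (5977 against 2719 genes) with each array centred on the cytosolic ribosomal protein genes, and 43.5% (3677 against 4779 genes) with each array centred on its median, so which side held more calls depended on the scaling. With a difference of over 1 as well, 1344 genes (6.6%) were higher in adipose tissue and 1325 (6.51%) in muscle. The differences were larger on the muscle side. At a difference over 4 there were 43 genes higher in adipose tissue and 117 higher in muscle, and the extremes were 5.78 (Pde3b) and -8.01 (Pvalb). The median difference of all genes was 0.02. Of the 20358 genes, the 3 adipose arrays lay above all 3 muscle arrays for 5425 and below all of them for 5015. Full separation in either direction has p = 0.1 in an exact permutation of 3 arrays against 3. Of the 8250 called genes, 377 overlapped between tissues. For 444 of the 1344 genes (33.0%) the muscle mean, and for 417 of the 1325 genes (31.5%) the adipose mean, was at or under 5.5, the level below which 95% of the olfactory receptor genes lay. Many of these genes may not be above the array's background in the lower tissue, so their differences may understate the true ratio. An exact test on 3 pairs cannot go below p = 0.25, so single genes rest on the fit across all genes.

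**Figure D2:**
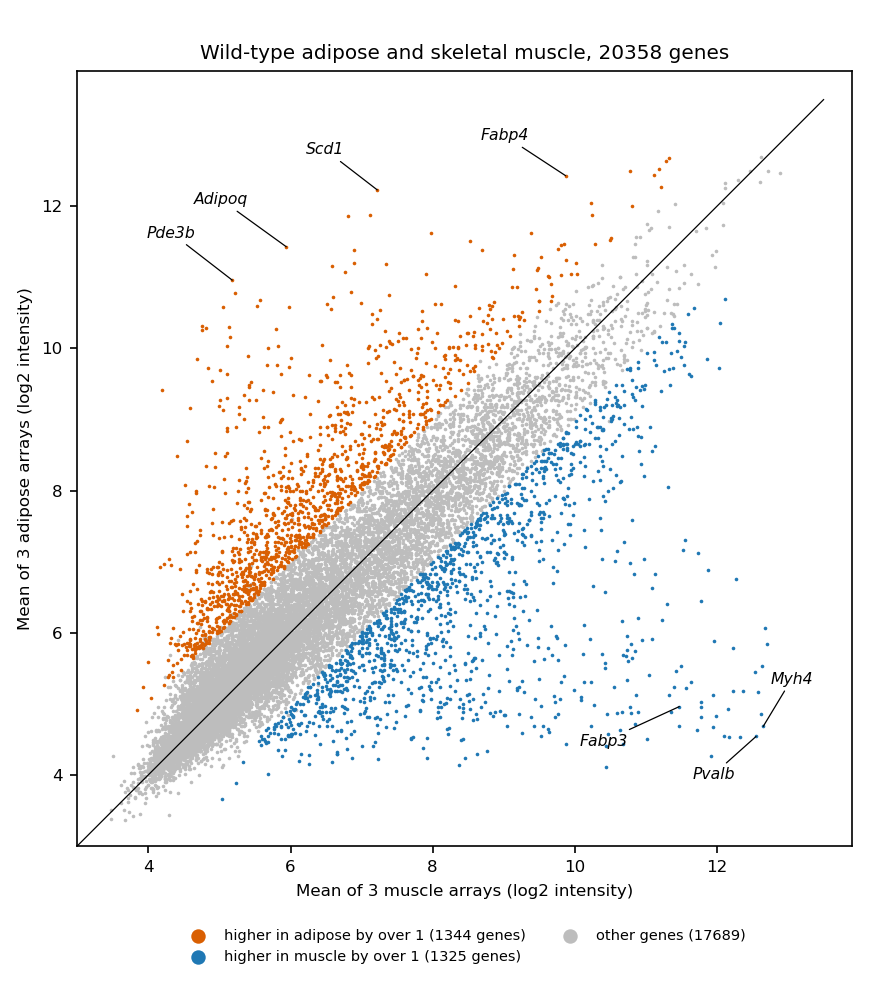
Mean level on the 3 adipose arrays (vertical axis) against mean level on the 3 muscle arrays (horizontal axis), both in log2 intensity, for 20358 genes, with the line of equal levels. The 1344 genes higher in adipose tissue by over 1 reach a difference of 5.78 above the line, and the 1325 genes higher in muscle by over 1 reach -8.01 below it.

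The promoters shown are those of the first 3 genes on each side, by size of difference, that the RefSeq tables hold. Pde3b, which had the largest difference on the adipose side, had no promoter in those tables and is not shown. Each run covers 250 bases before and 50 bases after the start of transcription that lies farthest upstream (RefSeq, GRCm38.p6), and the capitals mark exact matches on either strand to TATAAA (the TATA box), CAGCTG (an E-box bound by myogenic factors), TAAAAATA (a motif of MEF2 factors), TTGCNNAA (a motif of C/EBP factors) and AGGTCA (the core of nuclear receptor sites). The first 3 are higher in adipose tissue and the other 3 are higher in muscle.
Cidec (chr6:113435711-113436010, minus strand): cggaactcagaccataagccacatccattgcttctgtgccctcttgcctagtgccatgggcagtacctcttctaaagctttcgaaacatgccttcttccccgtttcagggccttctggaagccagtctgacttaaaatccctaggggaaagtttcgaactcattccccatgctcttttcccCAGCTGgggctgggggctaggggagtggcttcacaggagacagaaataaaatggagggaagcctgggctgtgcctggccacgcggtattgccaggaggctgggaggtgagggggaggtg
Acvr1c (chr2:58357709-58358008, minus strand): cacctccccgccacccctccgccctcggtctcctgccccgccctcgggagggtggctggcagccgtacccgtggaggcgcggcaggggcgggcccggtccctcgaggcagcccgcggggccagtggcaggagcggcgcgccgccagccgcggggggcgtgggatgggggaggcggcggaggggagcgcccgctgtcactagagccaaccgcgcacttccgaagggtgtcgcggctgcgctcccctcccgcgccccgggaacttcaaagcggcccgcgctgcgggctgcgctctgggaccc
Pck1 (chr2:173152823-173153122, plus strand): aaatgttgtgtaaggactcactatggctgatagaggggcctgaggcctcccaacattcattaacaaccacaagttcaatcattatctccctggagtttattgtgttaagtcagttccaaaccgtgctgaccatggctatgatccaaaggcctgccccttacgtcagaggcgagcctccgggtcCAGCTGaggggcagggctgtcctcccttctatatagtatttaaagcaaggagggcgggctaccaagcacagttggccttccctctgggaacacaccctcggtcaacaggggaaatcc
Pvalb (chr15:78206351-78206650, minus strand): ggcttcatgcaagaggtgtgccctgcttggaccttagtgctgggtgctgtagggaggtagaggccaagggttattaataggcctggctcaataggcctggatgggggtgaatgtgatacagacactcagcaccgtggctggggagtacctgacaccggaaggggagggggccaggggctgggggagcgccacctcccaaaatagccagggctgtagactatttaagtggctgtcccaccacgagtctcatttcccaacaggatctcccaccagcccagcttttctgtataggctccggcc
Myh4 (chr11:67237562-67237861, plus strand): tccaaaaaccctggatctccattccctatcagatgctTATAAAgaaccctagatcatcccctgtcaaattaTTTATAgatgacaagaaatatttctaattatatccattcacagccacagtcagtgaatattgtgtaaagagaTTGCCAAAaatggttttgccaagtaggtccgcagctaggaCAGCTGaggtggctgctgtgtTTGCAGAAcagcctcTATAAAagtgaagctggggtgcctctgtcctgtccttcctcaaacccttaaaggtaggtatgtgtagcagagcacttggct
Xirp2 (chr2:67445752-67446051, plus strand): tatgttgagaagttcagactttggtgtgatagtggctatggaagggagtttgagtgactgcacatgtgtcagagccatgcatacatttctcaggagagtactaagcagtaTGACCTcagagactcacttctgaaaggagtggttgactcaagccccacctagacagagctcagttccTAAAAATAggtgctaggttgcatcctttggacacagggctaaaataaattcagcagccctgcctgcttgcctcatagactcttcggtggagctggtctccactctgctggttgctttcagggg
CAGCTG was present in the Cidec, Pck1 and Myh4 runs, with first bases at -69, -67 and -67 from the start site. Myh4 had 3 matches to TATAAA, the nearest of them at -31, and 2 to TTGCNNAA, and Xirp2 had 1 to TAAAAATA and 1 to AGGTCA on the other strand. The Acvr1c and Pvalb runs held none of these letters, and no matches overlapped. Of 32851 mouse promoters of the same length, 13.6% held TATAAA, 16.3% CAGCTG, 2.72% TAAAAATA, 10.8% TTGCNNAA and 16.3% AGGTCA, so a match is only a description of the letters.

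Among the genes higher in adipose tissue, Pde3b had the largest difference. It encodes the phosphodiesterase through which insulin lowers cyclic AMP in adipocytes, and its levels were 10.87, 10.97 and 11.03 on adipose arrays 1, 2 and 3 and 5.43, 5.18 and 4.92 on muscle arrays 1, 2 and 3, a difference of 5.78 ± 0.14 (SE, 3 pairs, adjusted p = 1.07e-06). Cidec, a droplet protein that fuses lipid droplets, had 10.66, 10.85 and 10.83 in adipose tissue, against 4.77, 5.34 and 5.55 in muscle (difference 5.56 ± 0.13, SE). Acvr1c, the receptor ALK7 for activins and related ligands, had 9.98, 10.43 and 10.53 in adipose tissue and 4.51, 4.89 and 4.89 in muscle (difference 5.55 ± 0.10, SE). In each of these genes the tissues were far apart and every probe set passed the test. Pck1, phosphoenolpyruvate carboxykinase, which makes glyceride glycerol in adipocytes, followed with a difference of 5.53, and then Tmem45b (5.51), Adipoq (5.49), Prkar2b, a regulatory subunit of protein kinase A (5.47), the estrogen sulfotransferase Sult1e1 (5.23), the thyrotropin receptor Tshr (5.16), the mitochondrial carbonic anhydrase Car5b (5.16), Retn (5.11), Nnat (5.08), the cysteine dioxygenase Cdo1 (5.06), Adgrg2 (5.02) and the stearoyl-CoA desaturase Scd1 (5.0). Nnat and Adgrg2 were among the genes that were lower on adipose array 3. Without mouse 3 their differences were 5.44 and 5.45, and both genes stayed past the threshold without any 1 mouse.

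On the muscle side the largest differences were larger. Pvalb, the calcium buffer parvalbumin of fast fibres, had 4.46, 4.43 and 4.73 on adipose arrays 1, 2 and 3 and 12.56, 12.58 and 12.51 on muscle arrays 1, 2 and 3, a difference of -8.01 ± 0.11 (SE, 3 pairs, adjusted p = 1.74e-07). Myh4, the myosin heavy chain of fast IIb fibres, had 4.62, 4.68 and 4.74 in adipose tissue, against 12.6, 12.59 and 12.76 in muscle (difference -7.97 ± 0.09, SE). Xirp2, an actin-binding protein of striated muscle, had 4.48, 4.38 and 4.72 in adipose tissue and 12.28, 12.29 and 12.39 in muscle (difference -7.80 ± 0.10, SE). Ttn, the giant spring titin, had a difference of -7.76 and 319 of its 320 probe sets passed the test as higher in muscle by over 1. The remaining 11 of the 15 largest differences were Myh1 (-7.66), the kinase Mylk4 (-7.64), the fast myosin binding protein Mybpc2 (-7.56), the calcium pump Atp2a1 (-7.41), the fast regulatory light chain Mylpf (-7.27), Actn3 (-7.24), the fast troponin C Tnnc2 (-7.18), the glycogen-targeting phosphatase subunit Ppp1r3a (-7.15), nebulin (Neb, -7.11), Klhl41 (-7.10) and skeletal actin (Acta1, -7.09). The adipose means of 14 of these 15 genes were at or under 5.5, that is, within the range of the olfactory receptor genes. Myh1 and Myh4, as well as the actin genes, are near-identical in sequence, and how far their probe sets bind each other's transcripts was not tested.

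**Figure D3:**
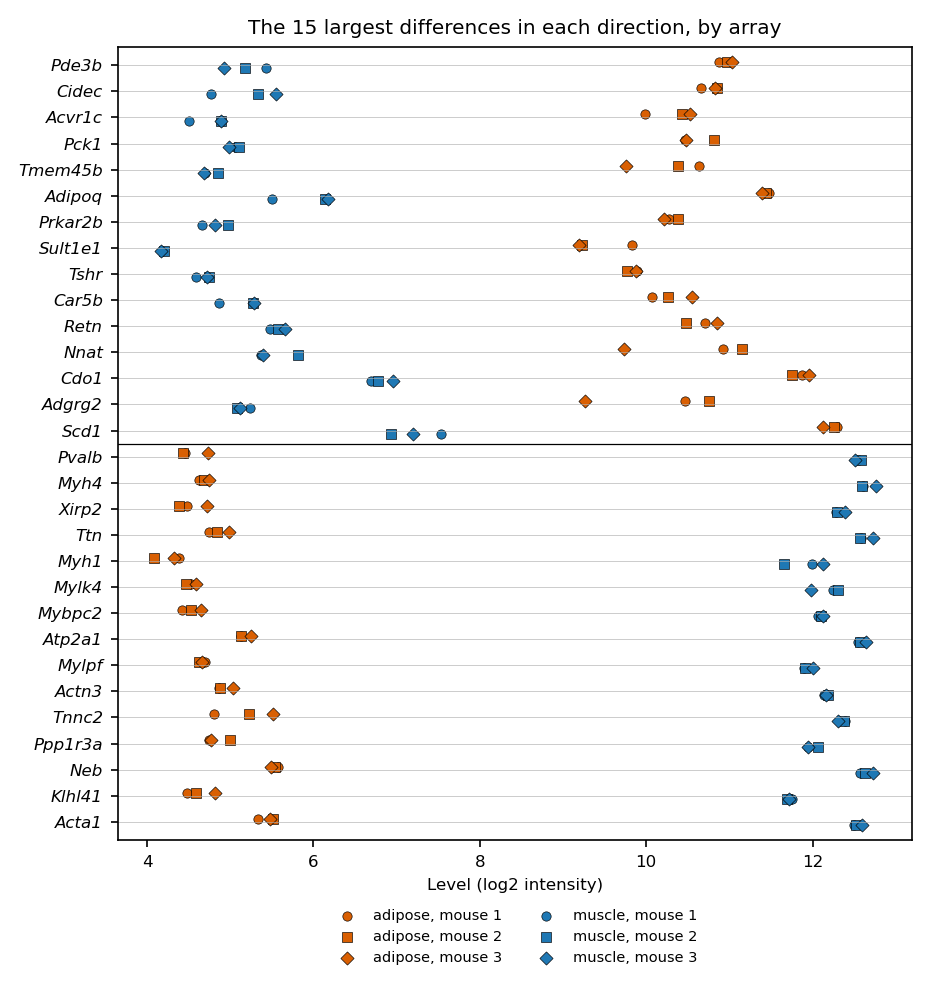
Level (log2 intensity, horizontal axis) of the 15 genes with the largest differences in each direction, by array, with adipose arrays in orange and muscle arrays in blue and a marker for each mouse. The upper 15 lie between 9.19 and 12.29 on the adipose arrays, and the lower 15 lie between 11.66 and 12.76 on the muscle arrays.

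Genes of adipocyte secretion were mostly higher in adipose tissue. Of 17 adipokines and secreted adipocyte proteins 13 passed as higher in adipose tissue and 1 as higher in muscle, and the median difference of the list was 2.50, against 0.02 for all genes. Adiponectin (Adipoq) had 11.47, 11.44 and 11.39 on adipose arrays 1, 2 and 3 and 5.5, 6.14 and 6.18 on muscle arrays 1, 2 and 3. Adiponectin varied little between the adipose arrays and by more between the muscle arrays, where its lowest value was on array 1. Leptin (Lep) had 9.63, 9.3 and 8.63 in adipose tissue and 4.94, 5.06 and 5.01 in muscle (difference 4.18 ± 0.20, SE, adjusted p = 1.59e-05), and complement factor D (Cfd, adipsin) had 11.09, 10.94 and 11.19 in adipose tissue and 6.34, 6.66 and 7.31 in muscle (difference 4.30 ± 0.17, SE). Npr3, the clearance receptor for natriuretic peptides, and the growth factor Nrg4 had differences of 4.10 and 4.08. Nampt, an enzyme of NAD synthesis that is also found outside cells, was the member higher in muscle, by 0.44, and lost the threshold without mouse 2 (-0.28), after quantile normalisation (-0.15) and under several other alternatives.

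Most lipogenic genes were higher in adipose tissue. Of 18 genes of de novo lipogenesis and NADPH supply 15 passed as higher in adipose tissue, with a median difference of 2.46. Scd1 had 12.29, 12.26 and 12.13 on the adipose arrays and 7.53, 6.93 and 7.2 on the muscle arrays. Fatty acid synthase (Fasn) had 9.91, 8.21 and 9.26 in adipose tissue and 5.03, 4.97 and 5.14 in muscle (difference 4.08 ± 0.28, SE, adjusted p = 7.17e-05). The lowest adipose value of Fasn was that of mouse 2, and the same held for ATP citrate lyase (Acly, 8.98, 7.57 and 8.45 in adipose tissue) and acetyl-CoA carboxylase 1 (Acaca, 9.66, 8.31 and 9.22 in adipose tissue). Thrsp, a lipogenic protein that thyroid hormone induces, and the citrate carrier Slc25a1 had differences of 3.65 and 3.43. Acss2, an acetyl-CoA synthetase, passed as higher in muscle, by 0.45, but not without mouse 2.

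Genes of triglyceride synthesis were mostly higher in adipose tissue or did not pass. Of 19 genes 9 passed as higher in adipose tissue, 2 passed as higher in muscle and 8 did not pass, with a median of 0.27. The shares of all genes higher in adipose tissue and in muscle were 21.6% and 18.9%. Both genes of the list that were higher in muscle, Agpat1 (-0.82) and Agpat5, belong to the Agpat family. The acyltransferases of adipose tissue Mogat1, Agpat2, Dgat2 and Dgat1 had differences of 4.08, 3.33, 3.21 and 2.94, while Agpat5 had -1.41. Of 20 droplet proteins and lipases 16 passed as higher in adipose tissue, with a median of 1.54. They included perilipin 1 (Plin1, 3.78), hormone-sensitive lipase (Lipe, 3.36), the glycerol channel Aqp7 (3.28) and monoglyceride lipase (Mgll, 2.76). The droplet protein Fitm1 was the member higher in muscle, with 4.39, 4.58 and 4.56 on the adipose arrays and 8.7, 8.32 and 8.26 on the muscle arrays (difference -3.91 ± 0.14, SE, adjusted p = 5.52e-06).

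Among 21 genes of fatty acid uptake, binding and activation 12 passed as higher in adipose tissue and 6 as higher in muscle. The shares of all genes were 21.6% and 18.9%, and the median of the list was 0.50. The binding proteins were split. Fabp4 had 12.52, 12.31 and 12.47 on adipose arrays 1, 2 and 3 and 9.93, 9.95 and 9.74 on muscle arrays 1, 2 and 3 (difference 2.56 ± 0.11, SE), and Fabp3, the heart and muscle form, had 5, 4.98 and 4.88 in adipose tissue and 11.53, 11.15 and 11.74 in muscle (difference -6.52 ± 0.14, SE, adjusted p = 7.58e-07). Among the activating enzymes Acsl3 and Acsl6 had differences of -2.31 and -1.71, and Acsl5 had 1.89. The transporter Slc27a2 had 8.03, 8.07 and 4.61 in adipose tissue and 5.38, 4.78 and 4.48 in muscle. Its difference (2.03, adjusted p = 0.0252) was 1.71 without mouse 1 and 1.39 without mouse 2, neither past the threshold, and 2.97 without mouse 3 (adjusted p = 9.72e-07).

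Of 18 genes of lipolytic and adrenergic signalling 13 passed as higher in adipose tissue and 3 as higher in muscle, with a median of 1.40. No adrenergic receptor was among these genes. The lactate receptor Hcar1, which restrains lipolysis, had 8.15, 8.94 and 8.99 on the adipose arrays and 4.4, 4.68 and 4.55 on the muscle arrays (difference 4.15 ± 0.15, SE), and the prostaglandin receptor Ptger3 had a difference of 2.24. The phosphodiesterases went opposite ways, with Pde3b at 5.78 and Pde4d at -2.98. Of 18 genes that mark brown and beige adipocytes 2 passed as higher in adipose tissue and 5 as higher in muscle, where 21.6% and 18.9% of all genes passed. Their median was -0.05. The uncoupling protein Ucp1 had 4.52, 4.42 and 4.55 in adipose tissue and 4.22, 4.53 and 4.55 in muscle, at the level of the olfactory receptor genes in both. The members higher in muscle were Cox7a1 (-5.15), Cox8b (-5.00), the coactivator Ppargc1a (-2.74), Tbx1 (-1.75) and Dio2 (-0.40), the last not without mouse 1 or mouse 2. Cox7a1 and Cox8b encode cytochrome oxidase subunits of muscle as well as of brown fat.

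Most genes of the contractile apparatus were higher in muscle. All 24 thick filament and M band genes, 18 of 21 thin filament genes and 30 of 31 genes of the Z disc and costamere passed as higher in muscle and none as higher in adipose tissue, with medians of -4.56, -4.14 and -3.55. The M band protein Myom2 and the IIa myosin Myh2 had differences of -6.01 and -6.20, the slow binding protein Mybpc1 had -6.78 and the thin filament anchor Nrap -6.15. Cardiac actin (Actc1) had -6.34. Of the Z disc genes the largest after Xirp2 and Actn3 were Myot (-6.62), Actn2 (-6.46), Smpx (-5.92) and telethonin (Tcap, -5.42).

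Fast and slow fibre genes differed in how steady they were over the mice. All 14 fast fibre genes passed as higher in muscle, with a median of -7.21, and their mean levels on muscle arrays 1, 2 and 3 were 12.04, 11.92 and 12.01. Of 12 slow fibre genes 10 passed as higher in muscle, with a median of -2.15, and their mean levels on muscle arrays 1, 2 and 3 were 9.35, 7.62 and 7.69. On array 1 the slow fibre genes were thus well above their levels on the other 2 muscle arrays, and 10 of the 12 had their highest muscle value there. Myh7, the slow myosin heavy chain, had 4.73, 4.76 and 4.9 on the adipose arrays and 9.04, 6.37 and 6.15 on the muscle arrays (difference -2.39 ± 0.54, SE, adjusted p = 0.0134). The slow light chain Myl2 had 5.03, 5.02 and 5.27 in adipose tissue and 11.2, 8.49 and 9.45 in muscle (difference -4.60 ± 0.46, SE). Without mouse 1 the differences were -1.43 for Myh7, -3.82 for Myl2 and -1.69 for the median of the list, and 10 of the 12 genes still passed. Tnni1, the slow troponin I, had 5.11, 5.28 and 5.44 on the adipose arrays and 7.93, 5.7 and 5.51 on the muscle arrays and did not pass (difference -1.11), but it passed without mouse 3 (-1.62, adjusted p = 0.0133) and had a difference of -0.25 without mouse 1. Nor did Atp2a2 pass, the calcium pump of slow fibres and of cells other than muscle, with 10.67, 10.58 and 10.43 in adipose tissue and 11.25, 10.06 and 10.4 in muscle.

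Of 27 genes of excitation-contraction coupling and calcium handling 23 passed as higher in muscle, with a median of -3.99. The ryanodine receptor Ryr1 had 4.78, 4.91 and 4.98 on the adipose arrays and 10.83, 10.86 and 10.96 on the muscle arrays (difference -6.00 ± 0.09, SE), its partner in the T tubule Cacna1s had -6.12, and the calcium stores Casq1 and Hrc had -6.43 and -6.32. Asph was the member higher in adipose tissue (difference 1.73), and its probe sets went opposite ways, as described with the probe sets. At the nerve contact 11 of 14 genes passed as higher in muscle, with a median of -0.82, led by the receptor kinase Musk (-3.93) and the acetylcholine receptor subunit Chrna1 (-2.34). In the dystrophin complex and sarcolemma list 15 of 21 genes passed as higher in muscle, dystrophin (Dmd) among them (-3.45). Another 4 passed as higher in adipose tissue, near the 21.6% of all genes. Those 4 were the syntrophins Sntb1 (2.92) and Sntb2 (0.77), the sarcoglycan Sgce (2.36) and utrophin (Utrn, 1.97), the widely expressed relative of dystrophin.

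Regulators of the muscle lineage were higher in muscle, though not all of them. Of 23 myogenic regulators 19 passed as higher in muscle and none as higher in adipose tissue, with a median of -1.41. Myostatin (Mstn), which limits muscle growth, had 4.39, 4.46 and 4.64 on adipose arrays 1, 2 and 3 and 10.81, 11.12 and 11.13 on muscle arrays 1, 2 and 3 (difference -6.52 ± 0.10, SE). Myf6, the myogenic factor of mature fibres, had 4.42, 4.65 and 4.86 in adipose tissue and 9.71, 9.75 and 9.4 in muscle (difference -4.97). Next were Eya1 (-4.72), Tbx15 (-4.33), the methyltransferase Smyd1 (-4.18) and Eya4 (-4.17). The satellite cell factor Pax7 had 4.91, 5.12 and 5.14 in adipose tissue and 5.26, 5.22 and 5.28 in muscle, which did not pass the test (difference -0.20 ± 0.10, SE). In muscle its levels lay below 5.5.

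The transcription factors of adipogenesis were less one-sided. Of 18 genes 11 passed as higher in adipose tissue and 6 as higher in muscle, where 21.6% and 18.9% of all genes passed. The median of the list was 0.40. Cebpa had 9.55, 9.5 and 9.31 on the adipose arrays and 5.33, 5.39 and 5.55 on the muscle arrays (difference 4.03 ± 0.12, SE), and Pparg, the master regulator of adipocytes, had 9.93, 9.67 and 9.93 in adipose tissue and 6.51, 6.38 and 6.75 in muscle (difference 3.30 ± 0.10, SE). Ebf1 and Ebf2 had 2.67 and 1.90. The members higher in muscle by over 1 were Stat5b (-1.94), a signal transducer of growth hormone, and Zfp521 (-1.02), which restrains adipogenesis. Of 46 nuclear receptors 7 passed as higher in adipose tissue and 14 as higher in muscle, where 21.6% and 18.9% of all genes passed. The orphan receptor Nr4a1, an immediate early gene, had 5.89, 5.57 and 5.39 in adipose tissue and 9.32, 9.09 and 7.7 in muscle (difference -3.08 ± 0.23, SE, adjusted p = 0.000113).

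Fuel storage genes of muscle were higher in muscle, and related genes were higher in adipose tissue. Of 20 genes of glycogen metabolism 12 passed as higher in muscle and 6 as higher in adipose tissue, where 18.9% and 21.6% of all genes passed. The phosphorylases, which release glucose units from glycogen, were split by form. Muscle phosphorylase (Pygm) had 5.2, 5.22 and 5.11 on adipose arrays 1, 2 and 3 and 12.24, 12.21 and 12.23 on muscle arrays 1, 2 and 3 (difference -7.05 ± 0.09, SE), while the liver form Pygl had 10.03, 9.51 and 10.14 in adipose tissue and 5.16, 5.53 and 5.5 in muscle (difference 4.50 ± 0.17, SE) and the brain form Pygb a difference of 3.12. Of 27 glycolysis genes 13 passed as higher in muscle and 8 as higher in adipose tissue, against the same shares of all genes. Those higher in muscle included Pgam2 (-6.97), Eno3 (-5.52) and Pfkm (-5.18). Those higher in adipose tissue included Pfkp (1.89), Pfkl (1.28) and Pgam1 (1.11). Of 13 genes of phosphocreatine, the purine nucleotide cycle and oxygen storage 9 passed as higher in muscle, with Ampd1 (-6.82), Ckmt2 (-6.24), Ckm (-5.05), Adssl1 (-4.99) and myoglobin (Mb, -3.76), and Ckb, the brain creatine kinase, was higher in adipose tissue (1.80).

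The split by form was counted over 50 pairs of related proteins, each of a form known from muscle and another form, of which 49 pairs were measured. In 40 pairs the muscle form passed as higher in muscle and the other form passed as higher in adipose tissue. By itself, the muscle form passed as higher in muscle in 47 of 49 pairs and the other form as higher in adipose tissue in 42 of 49, where 18.9% and 21.6% of all genes passed in those directions. The pairs and the partner in each were chosen for these roles and are no sample of all genes, so the counts are a description and no test. Family members that were not paired went both ways. Atp2a2 (-0.01) did not pass and Ppp1r3c (-3.85) was higher in muscle, while Pygb (3.12) and Pfkp (1.89) were higher in adipose tissue. The 40 pairs split by tissue spanned metabolism (Cpt1a 1.86 and Cpt1b -3.68, the carnitine palmitoyltransferases that admit fatty acids to mitochondria), respiration (Cox6a1 1.96 and Cox6a2 -5.00, Cox8a 1.72 and Cox8b -5.00), the cytoskeleton (Vim 1.69 and Des -5.15, Actb 1.36 and Acta1 -7.09) and protein synthesis (Rpl3 1.79 and Rpl3l -4.67, Eef1a1 1.58 and Eef1a2 -4.42). Rpl3 had 9.68, 9.56 and 9.64 in adipose tissue and 7.7, 7.68 and 8.13 in muscle, and Rpl3l had 4.46, 4.59 and 4.71 in adipose tissue and 9.37, 9.3 and 9.1 in muscle. The 2 pairs whose forms both passed as higher in muscle were Esrrg and Esrra (-1.37 and -0.62) and Prkag3 and Prkag1 (-3.17 and -0.34, the last not without mouse 1 or mouse 2). The muscle forms that did not pass were Acacb (0.00) and Plin5 (0.05), and both partners, Acaca and Plin1, were higher in adipose tissue. For Fbp1 and Fbp2, fructose bisphosphatases of liver and muscle, the differences were 0.80 and -0.97. Fbp2 had 7.87, 7.8 and 5.2 in adipose tissue and 8.35, 8.28 and 7.15 in muscle and was among the genes low on adipose array 3. Without mouse 3 its difference was -0.48. The call of Fbp2 was also lost without the replicate block (adjusted p = 0.28), in the fits of 9, 17 and 18 arrays, after quantile normalisation and under the random block, the robust moderation and no moderation. The call of Fbp1 was lost without mouse 1 (0.48) and without mouse 2 (0.71), and its difference without mouse 3 was 1.23.

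**Figure D4:**
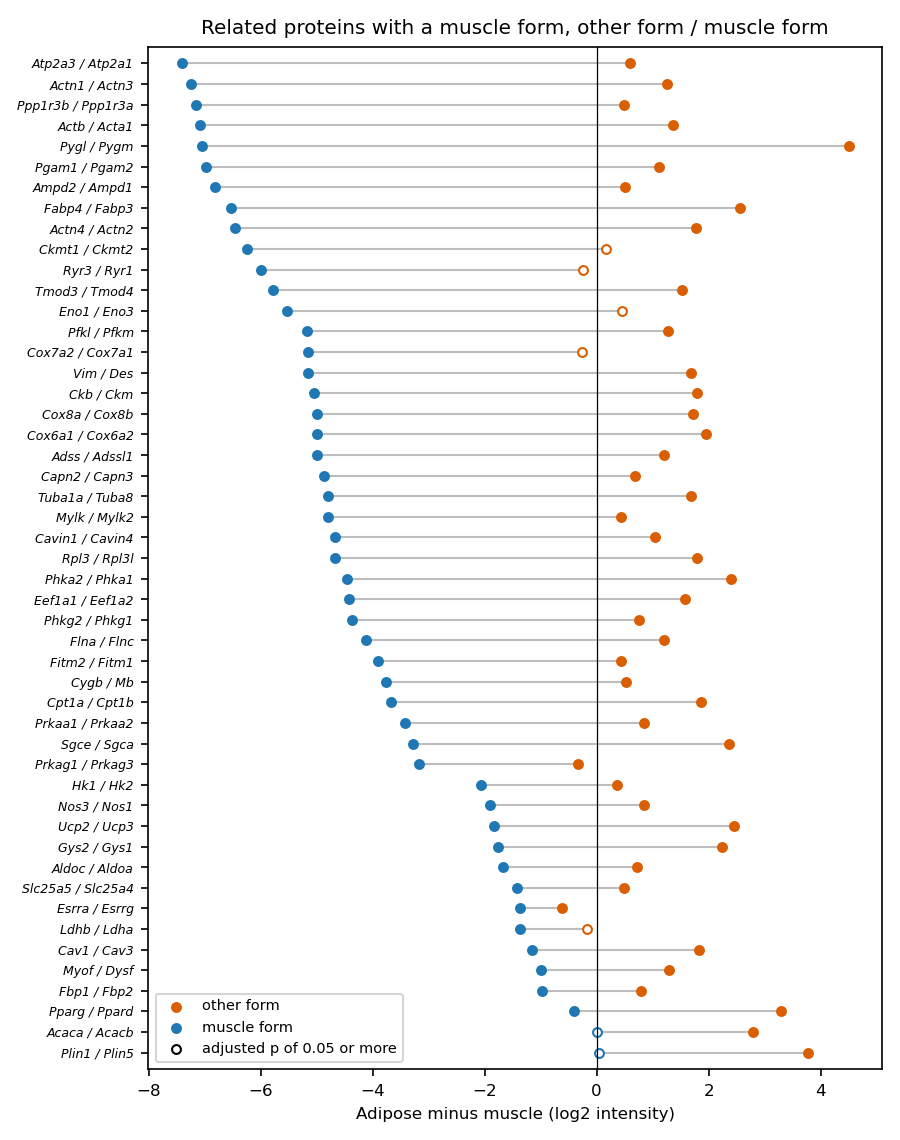
Adipose minus muscle (log2 intensity, horizontal axis) for 49 pairs of related proteins, with the form known from muscle in blue, the other form in orange, and open circles for an adjusted p of 0.05 or more. In 40 pairs the blue point is below 0 and the orange point above 0, both past the threshold.

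Mitochondrial genes were mostly higher in muscle. Of the subunits measured, 34 of 36 of complex I, 4 of 4 of complex II, 10 of 10 of complex III, 11 of 16 of complex IV and 15 of 15 of complex V passed as higher in muscle, with medians of -1.26, -1.07, -1.17, -0.77 and -0.94. Only complex IV had members that passed as higher in adipose tissue, namely the widely expressed forms Cox6a1 and Cox8a and Cox6b2 (0.44, not without mouse 1 or mouse 2). Ndufb5, a complex I subunit, had 7.69, 7.49 and 7.78 on the adipose arrays and 10.05, 10 and 9.87 on the muscle arrays (difference -2.32 ± 0.11, SE, adjusted p = 1.85e-05). Of 30 genes of pyruvate dehydrogenase and the citric acid cycle 24 passed as higher in muscle and 2, pyruvate carboxylase (Pcx, 2.00) and Pdk3 (1.42), as higher in adipose tissue. Of 77 mitochondrial ribosomal proteins 57 passed as higher in muscle and none as higher in adipose tissue (median -0.68). The cytosolic ribosomal proteins had a median of 0.01. Among them 12 of 69 were higher in adipose tissue and 10 higher in muscle, where 21.6% and 18.9% of all genes passed. With the arrays centred on the ribosomal proteins instead, the median gene moved by 0.14 towards adipose tissue, which is less than the medians of the 5 complexes.

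Genes that oxidise fatty acids and branched-chain amino acids were mixed. Of 21 genes of mitochondrial beta-oxidation 8 passed as higher in muscle and 1, Cpt1a, as higher in adipose tissue, where 18.9% and 21.6% of all genes passed. The median of -0.18 was smaller than its spread over mice (SD 0.44). Acadl, the long-chain acyl-CoA dehydrogenase, had 9.82, 9.68 and 9.94 in adipose tissue and 10.96, 10.76 and 10.96 in muscle (difference -1.08 ± 0.09, SE). Of 24 genes of branched-chain amino acid degradation 8 passed as higher in adipose tissue and 5 as higher in muscle, where 21.6% and 18.9% of all genes passed. The median was 0.20 (SD over mice 0.36). Bckdhb, a subunit of the branched-chain ketoacid dehydrogenase, had 9.61, 9.74 and 9.89 in adipose tissue and 8.41, 7.94 and 7.75 in muscle (difference 1.72 ± 0.18, SE, adjusted p = 0.000424), and Mccc1, Hibch and Aldh6a1 had 1.30, 1.21 and 1.15. Bckdk, the kinase that turns that dehydrogenase off, had 7.63, 7.56 and 7.53 in adipose tissue and 9.16, 9.05 and 9 in muscle (difference -1.50 ± 0.09, SE). Bcat2, which starts the pathway, had 7.98, 8.05 and 9.09 in adipose tissue and 7.69, 7.38 and 6.98 in muscle. Its call (difference 1.03, adjusted p = 0.0429) was lost without mouse 2, and its difference was 0.48 without mouse 3.

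Insulin signalling and glucose transport had 8 of 31 genes higher in adipose tissue and 9 higher in muscle, where 21.6% and 18.9% of all genes passed, with a median of 0.07. The insulin-responsive glucose transporter Slc2a4 (GLUT4) had 6.61, 6.68 and 6.64 on the adipose arrays and 8.2, 8.18 and 8.13 on the muscle arrays (difference -1.52 ± 0.09, SE, adjusted p = 4.47e-05), and Slc2a12 had -1.83. Irs1 was higher in muscle (-1.04), and the phosphoinositide 3-kinase subunit Pik3r1 was higher in adipose tissue (1.79). The insulin receptor (Insr) had 9.43, 9.44 and 9.48 in adipose tissue and 9.29, 9 and 9.45 in muscle, a difference that did not pass the test (0.20 ± 0.11, SE). In the IGF system Igf1 had 11.31, 11.25 and 11.38 in adipose tissue and 9.11, 8.95 and 9.38 in muscle (difference 2.17 ± 0.10, SE), and the binding protein Igfbp5 was higher in muscle (-1.85).

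Most endothelial, macrophage and complement markers were higher in adipose tissue, and other immune lists were mixed. Of 17 endothelial markers 14 passed as higher in adipose tissue and none as higher in muscle, with a median of 0.94, and Pecam1 had 9.05, 8.97 and 9.43 in adipose tissue and 8.07, 7.69 and 8.11 in muscle (difference 1.19). Of 21 macrophage markers 16 passed as higher in adipose tissue and none as higher in muscle, with a median of 1.00. The lysozyme Lyz2 had 10.39, 10.46 and 11.04 in adipose tissue and 7.93, 8.03 and 8.39 in muscle (difference 2.52 ± 0.10, SE), Cd68 had 2.17 and Adgre1 (F4/80) 1.86. Of 16 lymphocyte markers 11 did not pass, 4 passed as higher in adipose tissue, near the 21.6% of all genes, and 1, the immunoglobulin Ighm (-1.55), passed as higher in muscle. Of 18 complement genes 16 passed as higher in adipose tissue (median 1.24), with C7 (2.70) and Cfb (2.65) after Cfd, and 1, the inhibitor Cd55 (-1.80), as higher in muscle. Of 34 chemokines 15 passed as higher in adipose tissue and 3 as higher in muscle, where 21.6% and 18.9% of all genes passed. The chemokine Cxcl9 had 7.77, 7.62 and 8.75 in adipose tissue and 4.85, 4.98 and 4.93 in muscle (difference 3.13 ± 0.22, SE). Another chemokine, Ccl28, was among the genes low on adipose array 3, with 8.86, 8.74 and 5.91 in adipose tissue and 5.7, 6.33 and 5.85 in muscle. Its difference (1.88, adjusted p = 0.0296) was 1.23 without mouse 1 and 1.61 without mouse 2, neither past the threshold, and 2.79 without mouse 3 (adjusted p = 2.28e-06).

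Of 20 fibroblast and progenitor markers (median 0.48) 10 passed as higher in adipose tissue and 2 as higher in muscle, where 21.6% and 18.9% of all genes passed. Gelsolin (Gsn, 1.92) and Dpp4 (1.78) led the list. Dpp4 was low on adipose array 3, with 7.91, 8.08 and 6.68 in adipose tissue and 5.71, 5.88 and 5.76 in muscle, and without mouse 3 its difference was 2.20. Of 44 collagen genes 33 did not pass, 8 passed as higher in adipose tissue and 3 as higher in muscle, no more than the 21.6% and 18.9% of all genes. Of 22 basement membrane genes 9 passed as higher in adipose tissue and 1 as higher in muscle, against the same shares of all genes. The laminin chains went opposite ways, with Lama4 at 2.40 and Lama2, the chain of muscle basement membrane, at -0.89. Of 14 mesothelial markers (median 0.85), genes of the layer that covers fat pads of the body cavity, 10 passed as higher in adipose tissue, where 21.6% of all genes passed. Upk1b had 6.97, 6.63 and 7.06 in adipose tissue and 4.69, 4.68 and 4.63 in muscle (difference 2.22 ± 0.12, SE). Without mouse 1, 2 or 3 the count of mesothelial markers was 8, 7 and 11 and their median 0.73, 0.77 and 1.12. The list averaged 6.07, 6.07 and 5.78 on adipose arrays 1, 2 and 3. Its keratins Krt8 (7.23, 7.71 and 6.16) and Krt18 (6.21, 6.71 and 5.11) were low on adipose array 3. On MKR adipose arrays 1, 2 and 3 Krt8 had 8.67, 6.41 and 6.22 and Krt18 had 8.49, 5.27 and 5.46. Which cells these transcripts came from was not tested. Smooth muscle and pericyte markers had 4 of 11 genes higher in adipose tissue and 2 higher in muscle, where 21.6% and 18.9% of all genes passed.

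**Figure D5:**
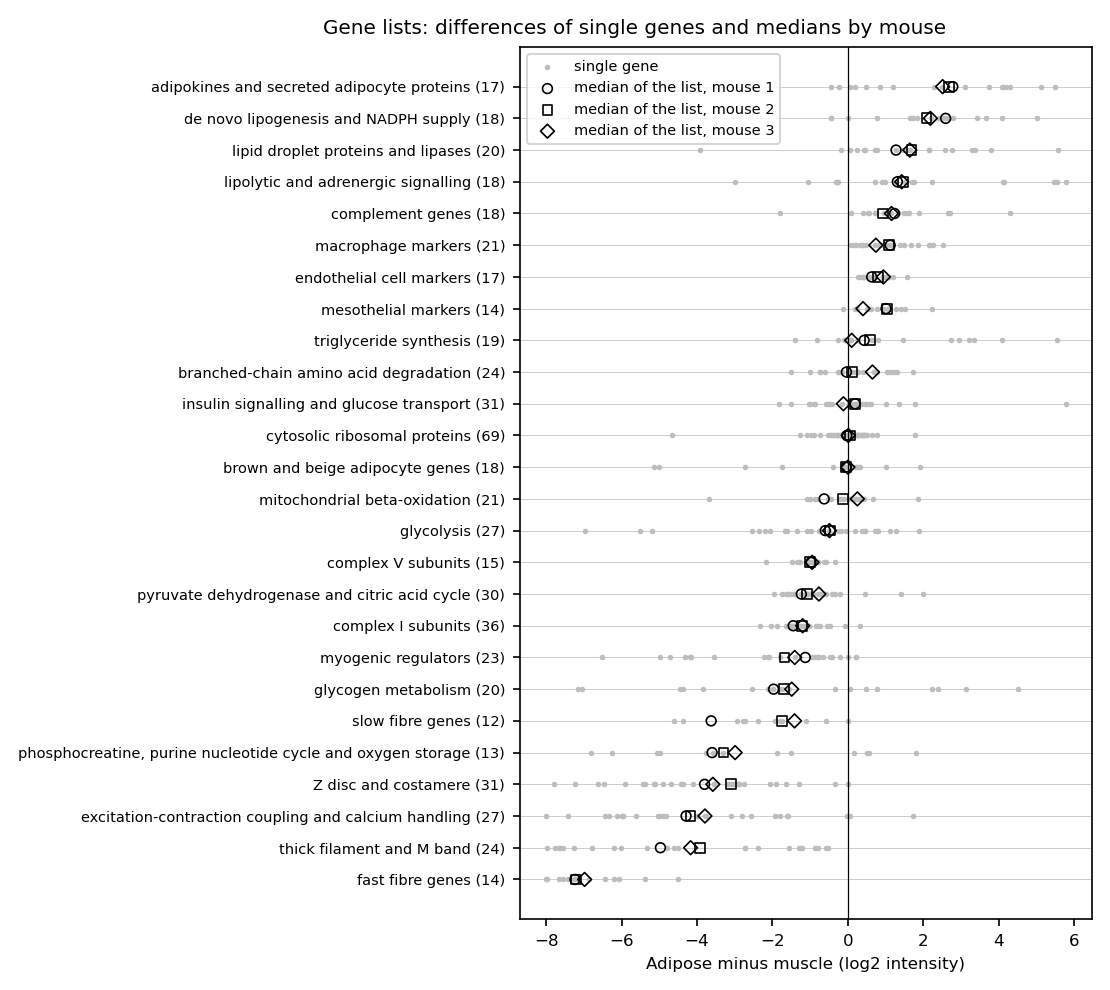
Adipose minus muscle (log2 intensity, horizontal axis) for the single genes of 26 lists (grey) and the median of each list in each of the 3 mice (open symbols), with the number of genes in brackets. Medians of the 3 mice lie close together for most lists, such as the fast fibre genes at -7.21, and are widest apart for the slow fibre genes at -2.15.

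A gene value is a mean over probe sets of different exons, so genes whose probe sets went opposite ways were counted. Of 212138 probe sets 21434 passed as higher in adipose tissue by over 1 and 19848 as higher in muscle by over 1. Of the 15565 genes with at least 4 probe sets, 153 had at least 2 of each kind. Genes with more probe sets had more chances to be counted. With a difference of over 2 there were 7 such genes, and without mouse 1 there were 47 at a difference over 1, as there were without mouse 2. Pdlim5, a Z disc and actin adaptor with several splice forms, had 6 of 12 probe sets higher in adipose tissue and 5 higher in muscle, from 2.31 to -4.11, while the difference of the gene was -0.34 and lost the threshold without mouse 1 or mouse 2. Map3k20, a kinase with a long and a short form, had 4 of 22 probe sets higher in adipose tissue and 13 higher in muscle, from 2.54 to -3.91. Asph, chosen after its values were seen, had 25 of 36 probe sets higher in adipose tissue and 3 higher in muscle, from 4.53 to -3.30, while the difference of the gene was 1.73. Its locus encodes both a hydroxylase and junctional proteins of the sarcoplasmic reticulum. Which exons these probe sets cover was not analysed here.

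The same contrast in the 3 MKR mice was used only to see whether directions recurred in other animals. Of the 1344 genes higher in adipose tissue by over 1 in WT mice, 1259 (93.7%) were higher in adipose tissue in 3 of 3 MKR mice, and of the 1325 genes higher in muscle by over 1, 1267 (95.6%) were higher in muscle in 3 of 3. Of all genes, 27.9% were higher in adipose tissue and 28.9% were higher in muscle in 3 of 3 MKR mice. MKR adipose array 1 was the array on which the epididymis markers averaged 10.38. The 1344 genes included 107 of the 213 genes low on WT adipose array 3, and 72.3% of those 213 were over 1 higher on that MKR array. How far this array affected the counts was not tested.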

How the data were processed

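Total RNA of adipose tissue and skeletal muscle from 3 WT mice was amplified, labelled and hybridised to Affymetrix Mouse Gene 1.0 ST arrays. The deposited values are log2 values per probe set that the authors made with RMA and quantile normalisation in Partek 6.3; the genome build is not given in the sources used here. They lay between 1.52 and 3.81 on the 6 arrays, where log2 intensities would lie after a second log2 step, so 2 to the power of each value was taken as log2 intensity (2.87 to 14.05). This scale was inferred from the values. If it were wrong, the sizes of the differences would change, and the counts on the deposited scale are given with the alternatives. Background and detection were not analysed here, and the number of arrays limits the precision.

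Of 241419 probe sets, 212138 had 1 gene symbol, 4672 had several and 24609 had none. Symbols were updated through RefSeq names (17626 current, 2743 older, 53 kept), and probe sets of 1 symbol were averaged into 20358 genes with a median of 8 probe sets. A limma model with a mean for each tissue and the mouse as a block was fitted to the 6 arrays with empirical Bayes moderation, and p-values were adjusted over all genes by the Benjamini-Hochberg method at a threshold of 0.05. Pairing follows from the animals, since each mouse gave both tissues; the deviations of its 2 arrays from the tissue means correlated at 0.203, 0.063 and 0.089 for mice 1, 2 and 3. On simulated data of 20358 genes the fit recovered 70.0% of the genes changed by 1 and 96.0% of those changed by 2, with 2 false calls among 168. The simulation changed only a small part of the genes and drew the noise of each gene independently. In the data 40.5% of all genes were called and sets of genes moved together on single arrays, so these rates do not carry over to the calls above.

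The members and the 55 gene lists were chosen with earlier results of these data known. Named were the 15 largest differences in each direction past the threshold without overlap between tissues, leaving out predicted, RIKEN, small RNA and olfactory genes, and up to 6 members of a list past the threshold and 3 not past it, the tissue markers, the pairs of related proteins and up to 12 genes with mixed probe sets. Outside this rule, and named after their values were seen, were Acss2, Agpat5, Asph, Bcat2, Cox6b2, Cuzd1, Dcdc2a, Dio2, Dnah12, Lcn2, Mybpc1, Myh2, Myom2, Nampt, Nrap, Pdk3, Pfkp, Ptger3, Pygb, Rsph4a, Sntb1, Sntb2, Utrn, Zfp521 and, in the closing section, Psmb10, Per3 and Clock. Epcam, Foxj1, Krt8, Krt18, Pax8, Ppp1r3c and Srd5a2 were also named after their values were seen. The counts of named genes under the alternatives leave them out. Alternatives varied the pairing, the arrays in the fit, the scale, the summary of probe sets, a filter on dim genes, the normalisation, the moderation and the mice. Python 3.11.15, numpy 2.4.6, pandas 2.3.3, matplotlib 3.10.9, R 4.3.3 and limma 3.58.1 were used.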

Additional observations from a re-analysis of the deposited data

How the results depend on the processing

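Without moderation of the variances 830 genes were higher in adipose tissue and 1001 in muscle, with 487 and 627 by over 1, and over single probe sets there were 25565 and 23477, with 21434 and 19848 by over 1. With 1 mouse left out, the counts were 2863 to 4763 and 2682 to 4092, and 1244 to 1550 and 1270 to 1361 by over 1, and genes with mixed probe sets numbered 47 to 115 (7 at a difference over 2). Each other alternative kept these counts within 1.5 times. Without the replicate block, that is without the pairing by mouse, they were 4284, 3827, 1320 and 1324, and 11 of 193 named genes lost the threshold. In the fit of 17 arrays without MKR adipose array 1, chosen after seeing the data, they were 4610, 4019, 1357 and 1328. On the deposited scale 4157 and 3800 genes passed. Of the 193 named genes past the threshold 124 kept it and their sign under every alternative, 69 lost it under at least 1 (68 of them without moderation, and 15, 19 and 2 without mouse 1, 2 and 3), and 2 changed sign, both with the median of probe sets (Pdlim5 0.92 and Psmb10 -0.12). The cause was not tested.

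Genes that did not pass also changed sign. Acacb was -0.08 with arrays centred on the median and -0.07 with the median of probe sets, and lay between -0.05 and 0.12 with 1 mouse left out. Atp2a2 was 0.14 with arrays centred on ribosomal protein genes and 0.34 after quantile normalisation, and lay between -0.27 and 0.28 with 1 mouse left out. Plin5 was -0.03 and Ucp1 -0.02 with arrays centred on the median, and with 1 mouse left out Plin5 lay between -0.06 and 0.13 and Ucp1 between -0.06 and 0.15.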

Other observations

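Of 38 Hox genes, which encode the position of cells along the body axis, 11 passed as higher in adipose tissue and 5 as higher in muscle, where 21.6% and 18.9% of all genes passed, and 22 did not pass, so the counts of the list were near those of all genes. Hoxc10 had 4.06, 4.16 and 4.52 on adipose arrays 1, 2 and 3 and 8.52, 8.46 and 8.39 on muscle arrays 1, 2 and 3 (difference -4.22 ± 0.13, SE), and Hoxa9 and Hoxc9 had differences of -1.50 and -1.46. Hoxc8 went the other way, with 8.98, 8.71 and 8.69 in adipose tissue and 6.89, 6.62 and 6.8 in muscle (difference 2.02 ± 0.10, SE). Of 39 proteasome subunits 20 passed as higher in muscle and 3 as higher in adipose tissue, where 18.9% and 21.6% of all genes passed. Those 3 were the immunoproteasome subunits Psmb9 (1.59), Psmb8 (1.55) and Psmb10 (0.38), the last not without mouse 1 or mouse 2. Psmb8 had 7.16, 6.98 and 6.74 in adipose tissue and 5.57, 5.39 and 5.26 in muscle. Of 9 MHC class II genes, which present antigen, 4 passed as higher in adipose tissue and none as higher in muscle, where 21.6% and 18.9% of all genes passed. The invariant chain Cd74 had 2.50 and H2-Aa had 2.10.

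Of 18 circadian clock genes 10 passed as higher in muscle and 2 as higher in adipose tissue, where 18.9% and 21.6% of all genes passed. Their median was -0.48. The repressor Nfil3 had 5.17, 5.54 and 5.64 in adipose tissue and 7.66, 7.66 and 7.83 in muscle (difference -2.27 ± 0.11, SE), and Per3 (0.42) and Clock (0.33) were the members higher in adipose tissue, each of which did not pass once any 1 mouse was left out. Of 20 immediate early and stress genes 6 passed as higher in muscle and 2 as higher in adipose tissue, where 18.9% and 21.6% of all genes passed. Gadd45g had 6.24, 5.18 and 5.02 in adipose tissue and 8.27, 7.7 and 6.35 in muscle, so both tissues were highest on array 1. Among 21 secreted muscle factors 11 passed as higher in muscle and 2 as higher in adipose tissue, where 18.9% and 21.6% of all genes passed. Osteocrin (Ostn) and Fndc5 had differences of -2.40 and -2.33. Of 16 liver markers 3 passed as higher in muscle and 2 as higher in adipose tissue, near the 18.9% and below the 21.6% of all genes. Cyp2e1 was among those higher in adipose tissue, with 11.86, 11.86 and 11.93 in adipose tissue and 7.02, 7 and 7.35 in muscle. Without mouse 3, 12 of the liver markers passed as higher in muscle, and without mouse 2 there were 0. Schwann cell markers had 1 of 8 genes higher in adipose tissue and 2 higher in muscle. Mast cell and neutrophil markers had 1 and 2 of 13, and epididymis markers 1 and 1 of 19. The shares of all genes in these directions were 21.6% and 18.9%.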
